A study of Mus musculus with 12 samples.

Results

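Axon guidance ligands and receptors were examined in 2 cell populations of the developing mouse cerebral cortex. The genes were taken by symbol from the deposited expression table, as every listed semaphorin, plexin, neuropilin, Slit, Robo, ephrin, Eph receptor, netrin, netrin-G, Dcc, Neo1, Unc5, RGM, Draxin, collapsin response mediator protein, contactin, contactin-associated protein and Dscam gene. This gave 70 of the 4859 genes in the table, in 14 families. The table holds only genes that the study had called differential between the populations, so guidance genes outside it were not analysed here. The cells came from embryos of the Tg(Ebf2-EGFP)FB58Gsat line, a bacterial artificial chromosome transgene in which EGFP follows the gene for the transcription factor Ebf2, and all 12 libraries come from this line. Cortices were dissociated at embryonic days E11.5, E13.5 and E15.5 and separated by fluorescence-activated cell sorting into Ebf2-EGFP+ and Ebf2-EGFP- cells, with 2 libraries for each of the 6 groups. According to the methods of the study, embryos of several litters were pooled for each experiment, so a library is a pool and not an animal. The transgene marks preplate neurons early, among them subplate and Cajal-Retzius (CR) neurons, and stays mainly in CR neurons later. The Ebf2-EGFP- sort holds all other cortical cells, which are mostly progenitors at first and include cortical plate neurons from E13.5. No cells were treated.

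The labels were checked against marker genes. Ebf2 averaged 55.2 FPKM (fragment counts scaled to transcript length and to the fragments mapped in a library) in the E11.5 Ebf2-EGFP+ libraries, against 1.06 in the other sort. At E15.5 it averaged 3.98 and 0.0837 FPKM. Of 9 CR marker genes, 8 were higher in Ebf2-EGFP+ cells on E11.5 and 9 on E15.5. The summed level of these 9 genes in Ebf2-EGFP+ libraries was 318.5 to 336.2 FPKM at E11.5 and 572.6 to 1214 FPKM at E15.5. The 2 E15.5 Ebf2-EGFP+ libraries thus differed in CR marker level, and the part of this in the E15.5 differences was not tested. All 8 radial glia markers and all 6 cell cycle markers were lower in the Ebf2-EGFP+ sort of each stage, and so were all 9 markers of ganglionic eminence or interneurons at E11.5. The summed level of 8 cortical plate markers in Ebf2-EGFP- cells was 65.1 to 69.0 FPKM at first, 546 to 687 FPKM in E13.5 libraries and 806 to 989 FPKM in E15.5 libraries. In Ebf2-EGFP+ cells this sum was 465 to 523, 1172 to 1183 and 789 to 1207 FPKM. At E15.5, 4 of these 8 markers were higher in Ebf2-EGFP+ cells and 2 were lower. All 8 meningeal or fibroblast markers were listed and summed to 117 to 138 FPKM in Ebf2-EGFP- cells at E11.5 against 43.9 to 49.4 FPKM in Ebf2-EGFP+ cells. Of 10 endothelial markers 4 were listed (the defining genes Pecam1 and Tek were not), at 8.04 to 10.7 against 1.16 to 1.38 FPKM. Of 6 erythroid markers 4 were listed, at 1306 to 2752 against 32.9 to 97.1 FPKM. Of 8 microglial markers only Aif1 was listed. These lists therefore moved with the population contrast and with stage, and their part in the differences below was not tested. In such bulk samples, fewer cells of a type and less RNA per cell cannot be told apart.

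Growing axons are steered by cues that attract or repel the growth cone. Semaphorins signal through plexins, with neuropilins as co-receptors for the secreted class, Slits through Robo receptors, netrins through Dcc and the Unc5 family, and ephrins through Eph receptors in cell-to-cell contact. The collapsin response mediator proteins carry such signals to the cytoskeleton, and contactins, their associated proteins and Dscams are adhesion molecules of axons. In the cortex, the preplate holds the first neurons to send out axons, and CR neurons spread beneath the pial surface and secrete the glycoprotein reelin.

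At E11.5, 49 of the 70 guidance genes were higher in Ebf2-EGFP+ cells and 10 were lower, where a gene was called at a limma adjusted p under 0.05. Over all 4859 genes, 36.8% were called higher and 44.9% lower at this stage, against 70% and 14.3% of the guidance genes. At E13.5, 37 guidance genes were higher and 14 were lower (32.1% and 43.5% over all genes). At E15.5 the counts were 27 higher and 20 lower (25.8% and 31.6%). Under median-of-ratios scaling the members counted 52 higher and 8 lower, 43 and 12, and 31 and 18 in order of stage. The balance of all genes turned with this scaling at the later stages, to 39.1% higher and 36.1% lower at E13.5 and to 32.9% and 27.2% at E15.5, while at E11.5 it was 40.5% and 40.8%. The median log2 difference of the guidance genes, Ebf2-EGFP+ minus Ebf2-EGFP- on the log2(FPKM + 1) scale, was 0.96, 0.48 and 0.24 in order of stage. Over all genes the medians were -0.19, -0.19 and -0.11. The difference itself changed between E11.5 and E15.5 for 50 members: 39 moved towards Ebf2-EGFP- cells and 11 towards Ebf2-EGFP+ cells, where 27.7% and 32.0% of all genes did. Both libraries of the Ebf2-EGFP+ sort exceeded those of the other sort for 56 members at the first stage, 43 at the second and 33 at the third (42.5%, 39.1% and 34.7% of all genes). The reverse held for 14, 16 and 25 members (50.1%, 49.7% and 44.6%). In each group n = 2, and p-values measure the spread between such pooled libraries.

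**Figure D1:**
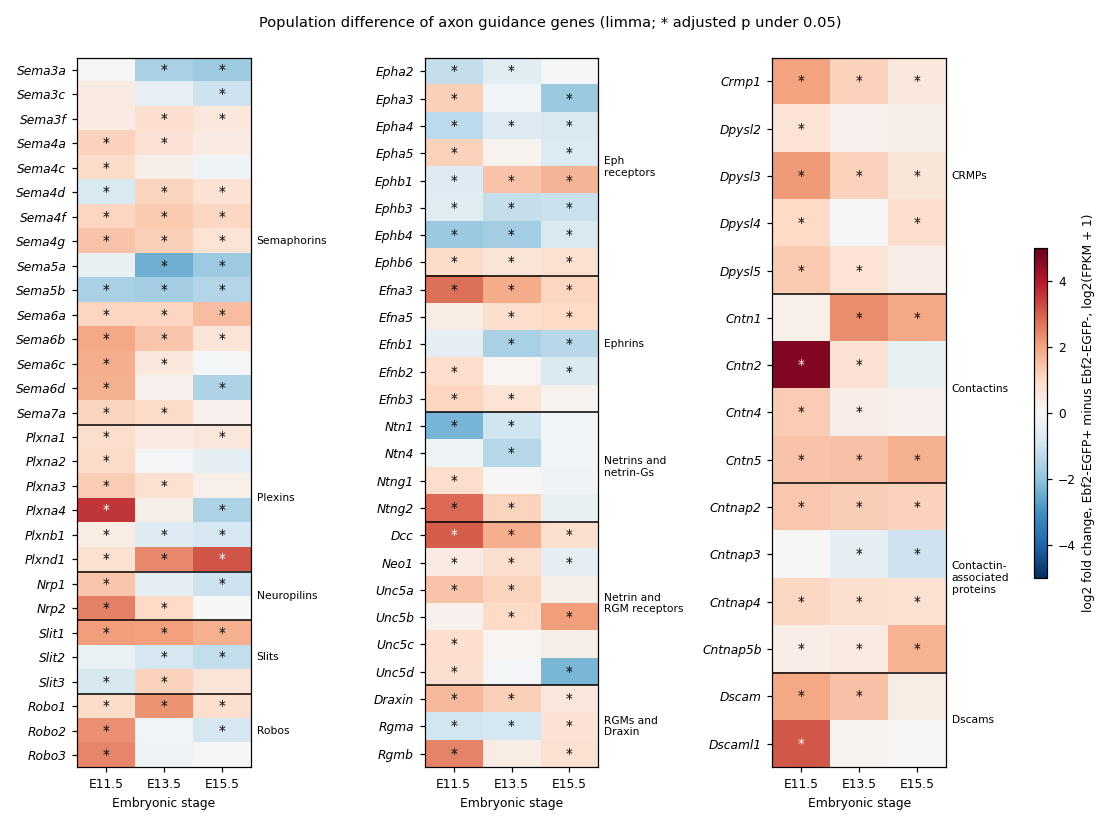
Population difference (colour, log2 fold change of Ebf2-EGFP+ over Ebf2-EGFP- cells on log2(FPKM + 1), mean of 2 libraries each) for the 70 guidance genes in rows at 3 stages in columns. Asterisks mark a limma adjusted p under 0.05. Over all blocks together, the left columns hold 49 genes called higher and 10 called lower, and the right columns 27 and 20.

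By role, 17 of 30 ligands were higher and 5 were lower in the E11.5 Ebf2-EGFP+ cells, and 19 of 25 receptors were higher and 5 lower. The 5 lower ligands became 8 with the replicate block or the compared groups alone, and the 5 lower receptors became 3 without E11.5 Ebf2-EGFP- replicate 1. At E15.5 the ligands counted 12 higher and 8 lower, and the receptors 7 higher and 11 lower. Of all genes, 36.8% were higher and 44.9% lower at E11.5, and 25.8% and 31.6% at E15.5. All 5 collapsin response mediator protein genes were higher at E11.5 and 3 at E15.5, a count that was 1 without E15.5 Ebf2-EGFP+ replicate 2, 0 with the compared groups alone and 5 with the replicate block. Of 10 adhesion genes, 8 were higher at E11.5 and none was lower, and 5 were higher and 1 lower at E15.5 (2 lower with the block). All 70 members were called at 1 or more stages, as were 97.4% of all genes. Across the stages, 17 members were higher in Ebf2-EGFP+ cells each time (14.6% of all genes) and 4 were lower each time (21.8%). The 17 became 11 without E15.5 Ebf2-EGFP- replicate 1, where Crmp1 (limma adjusted p = 0.228), Dpysl3 (0.152), Draxin (0.115), Robo1 (0.126), Sema4g (0.171) and Sema6b (0.0523) were not called at E15.5. The 4 became 2 with median-of-ratios scaling and 7 with the block. Among the 4, Epha4 was not called at E15.5 without E15.5 Ebf2-EGFP+ replicate 2 (log2 -0.44), and Ephb4 without E15.5 Ebf2-EGFP- replicate 1 (log2 -0.52). A further 10 were higher at E11.5 and lower at E15.5 (3.68% of all genes), namely Efnb2, Epha3, Epha5, Neo1, Nrp1, Plxna4, Plxnb1, Robo2, Sema6d and Unc5d. Some calls in this set rested on single libraries. Neo1 was no longer called without E15.5 Ebf2-EGFP+ replicate 1 (log2 -0.39, limma adjusted p = 0.169), E15.5 Ebf2-EGFP+ replicate 2 (log2 -0.55, limma adjusted p = 0.0613) or E15.5 Ebf2-EGFP- replicate 2 (log2 -0.27, limma adjusted p = 0.271). The E15.5 call of Neo1 was also lost with median-of-ratios scaling (log2 -0.27, limma adjusted p = 0.315) and with the compared groups alone (log2 -0.47, limma adjusted p = 0.0885). Its E11.5 call was lost without a variance trend (log2 0.42, limma adjusted p = 0.05095) and without E11.5 Ebf2-EGFP+ replicate 1 (log2 0.48, limma adjusted p = 0.0792), E11.5 Ebf2-EGFP+ replicate 2 (log2 0.36, limma adjusted p = 0.176) or E11.5 Ebf2-EGFP- replicate 2 (log2 0.30, limma adjusted p = 0.233). Without E11.5 Ebf2-EGFP+ replicate 2 (log2 0.29, limma adjusted p = 0.152), E11.5 Ebf2-EGFP- replicate 1 (log2 0.36, limma adjusted p = 0.0917) or E11.5 Ebf2-EGFP- replicate 2 (log2 0.41, limma adjusted p = 0.0561), Plxnb1 did not pass the threshold. The opposite order, lower at E11.5 and higher at E15.5, was found for Ephb1, Rgma and Sema4d (3.13% of all genes). More widely, 29 members were higher at the first stage without being higher at the last (21% of all genes), and 7 were higher at the last without being so at the first (10%). The early call stood alone for 7 members, Dpysl2, Dscaml1, Ntng1, Plxna2, Robo3, Sema4c and Unc5c (7.66%), a count that was 13 without E13.5 Ebf2-EGFP- replicate 1 and 12 with the compared groups alone.

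**Figure D2:**
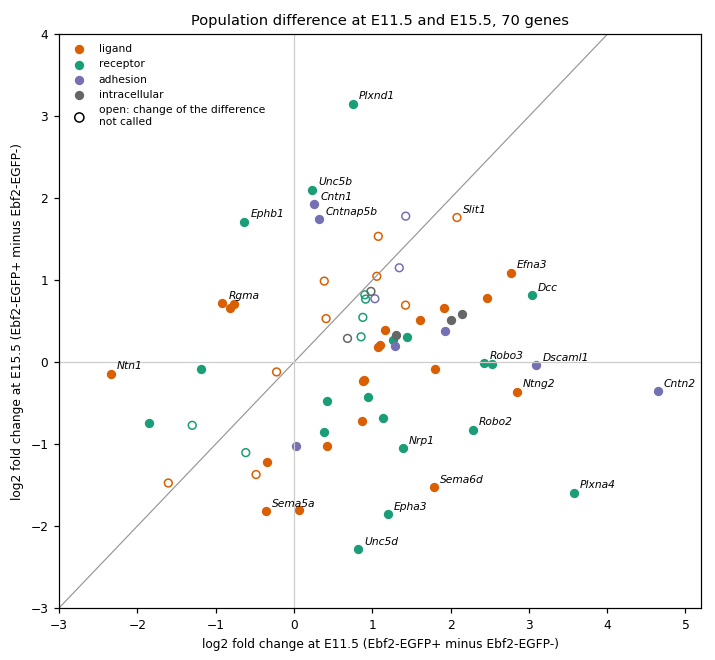
Log2 fold change of Ebf2-EGFP+ over Ebf2-EGFP- cells at E11.5 (horizontal axis) and E15.5 (vertical axis), on log2(FPKM + 1), for each of the 70 genes as 1 point coloured by role. Filled points are the 50 genes whose difference changed between the stages (limma adjusted p under 0.05), and 39 of these lie below the diagonal of equal differences.

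Promoters were searched for the palindromic consensus of the EBF transcription factors, TCCC and GGGA separated by any 2 bases, since the sorted cells were chosen by an Ebf2 transgene. RefSeq promoters of GRCm38.p6, from 250 bases before to 50 bases after a start, were found for 55 of the 70 genes. The letters occurred in 3 of 75 member promoters and in 0.904% of 32851 promoters over the genome. The 3 genes, Dpysl5, Robo3 and Plxnb1, were each called higher in the E11.5 Ebf2-EGFP+ cells, as were 70% of the guidance genes. The E11.5 call of Plxnb1 was sensitive to single libraries, as given above. Plxnb1 was called lower at E13.5, a call lost with median-of-ratios scaling, and at E15.5. For each of the 3 genes, 100 bases around the match, 5′ to 3′ on the strand of the gene, are shown with the consensus match in capitals. The windows are chr5:30711464-30711563 on the plus strand for Dpysl5, chr9:37433176-37433275 on the minus strand for Robo3 and chr9:109095231-109095330 on the plus strand for Plxnb1.
Dpysl5: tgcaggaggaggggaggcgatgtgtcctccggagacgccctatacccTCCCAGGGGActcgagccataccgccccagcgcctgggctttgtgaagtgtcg
Robo3: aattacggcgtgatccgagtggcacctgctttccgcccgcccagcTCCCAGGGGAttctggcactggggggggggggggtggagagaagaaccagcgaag
Plxnb1: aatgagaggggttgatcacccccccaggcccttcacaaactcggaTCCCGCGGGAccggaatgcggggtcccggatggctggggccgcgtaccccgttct
The consensus pattern is the same on both strands, as is the full Plxnb1 match, while the Dpysl5 and Robo3 matches differ in the middle bases. The E-box CAGATG, read on both strands, was in 4 of the 75 member promoters (Efna3, Ntng2, Sema3c and Sema4a) and in 17.2% of all promoters, and the homeobox core TAATTA was in 3 (Cntn4, Epha5 and Robo3) and in 5.29%. These matches describe letters in the window and do not show binding.

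Semaphorins were the largest family. Of 15 listed semaphorin genes, 9 showed a higher and 2 a lower level in the E11.5 Ebf2-EGFP+ cells. The counts were 9 and 3 for E13.5, and 6 and 5 for E15.5. The 6 higher semaphorins at E15.5 became 3 without E15.5 Ebf2-EGFP+ replicate 1 and likewise without E15.5 Ebf2-EGFP- replicate 1. Sema3a encodes a secreted repellent that acts through Nrp1 and A-type plexins. It was at 4.23 and 4.08 FPKM in the Ebf2-EGFP+ libraries and 3.99 and 3.84 FPKM in the Ebf2-EGFP- libraries at E11.5, and at 1.14 and 1.73 against 6.34 and 8.76 FPKM at E15.5. The E15.5 libraries did not overlap, the log2 difference was -1.81 ± 0.25 (SE; limma adjusted p = 0.000113), and the difference moved by -1.88 ± 0.35 between the stages (limma adjusted p = 0.000958). Sema5a and Sema5b encode transmembrane semaphorins with thrombospondin repeats. Sema5b was lower in Ebf2-EGFP+ cells at every stage, with 7.85 and 8.99 against 28.01 and 27.2 FPKM at E11.5 and 3.86 and 3.34 against 13.9 and 9.89 FPKM at E15.5 (log2 -1.47 ± 0.23, limma adjusted p = 0.000242). Sema5a was at 11.2 and 11.8 against 17.01 and 13.3 FPKM at E11.5, which was called with the replicate block (log2 -0.36, limma adjusted p = 0.0337) and with the compared groups alone (log2 -0.36, limma adjusted p = 0.0467). It was clearly separated at E13.5, at 6.35 and 3.88 against 35.5 and 28.7 FPKM (log2 -2.46 ± 0.21, limma adjusted p = 4.08e-06).

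The class 6 semaphorins, transmembrane ligands of A-type plexins, were all higher in Ebf2-EGFP+ cells at E11.5. Sema6d showed 11.1 and 18.2 against 3.33 and 3.51 FPKM at that stage (log2 1.79 ± 0.23, limma adjusted p = 2.48e-05). By E15.5 the order had turned, with 7.15 and 4.89 FPKM in Ebf2-EGFP+ and 19.02 and 18.9 FPKM in Ebf2-EGFP- libraries (log2 -1.53 ± 0.23, limma adjusted p = 0.000218). Sema6a stayed higher in Ebf2-EGFP+ cells throughout, at 12.6 and 10.8 against 3.79 and 3.0003 FPKM at E15.5 (log2 1.54 ± 0.17, limma adjusted p = 2.14e-05). Sema6c was at 45.6 and 49.6 against 11.9 and 14.1 FPKM at E11.5 and at 41.1 and 34.96 against 39.3 and 41.3 FPKM at E15.5, where the libraries overlapped. Among the class 4 genes, Sema4d, a ligand of Plxnb1, went the other way, from 2.28 and 2.56 against 5.02 and 4.57 FPKM at E11.5 to 19.2 and 17.7 against 7.37 and 8.42 FPKM at E13.5 (log2 -0.76 ± 0.18 and 1.13 ± 0.18, limma adjusted p = 0.00174 and 0.000155). At E15.5 it was called higher in Ebf2-EGFP+ cells at log2 0.71 ± 0.18. The limma call on Sema4d was lost without E15.5 Ebf2-EGFP+ replicate 1 (log2 0.50, limma adjusted p = 0.0567).

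All 6 listed plexins and both neuropilins were higher in Ebf2-EGFP+ cells at E11.5, beside 36.8% of all genes. At E15.5, 2 plexins were higher and 2 were lower, and of the neuropilins 1 was lower. At that stage 25.8% of all genes were higher and 31.6% lower. The higher plexins were Plxnd1 and Plxna1, and the call of Plxna1 (limma adjusted p = 0.0423) was lost without E15.5 Ebf2-EGFP+ replicate 1 (log2 0.19, limma adjusted p = 0.425), without either E15.5 Ebf2-EGFP- library (limma adjusted p = 0.0981 and 0.113) and with the compared groups alone (limma adjusted p = 0.1295). Plxna4, a receptor for class 3 and class 6 semaphorins, had the largest change of the population difference of any member. The gene lies on the minus strand at chr6:32144268-32588192 (GRCm38, the assembly of mm10, GENCODE M21). At E11.5 it was at 25.1 and 32.5 FPKM in Ebf2-EGFP+ and 1.51 and 1.45 FPKM in Ebf2-EGFP- libraries, and at E15.5 at 11.7 and 17.8 and 31.8 and 65.6 FPKM. The libraries were apart at both stages and in opposite order (log2 3.58 ± 0.29 and -1.59 ± 0.29, limma adjusted p = 1.11e-06 and 0.000794). Nrp1, the co-receptor for Sema3a, likewise stood at 11.6 and 14.1 against 4.13 and 4.403 FPKM at E11.5 and at 43.7 and 29.3 against 81.9 and 69.3 FPKM at E15.5 (log2 1.39 ± 0.21 and -1.05 ± 0.21, limma adjusted p = 6.69e-05 and 0.0012). At E13.5 it was called lower with the replicate block (log2 -0.45, limma adjusted p = 0.00861) and without E13.5 Ebf2-EGFP- replicate 1 (log2 -0.67, limma adjusted p = 0.02904). Plxna2 was at 59.8 and 45.1 against 64.7 and 76.5 FPKM at E15.5, which was called with the block (log2 -0.43, limma adjusted p = 0.0216).

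Plxnd1, a plexin that binds Sema3e, showed the opposite course, and on the log2(FPKM + 1) scale it had the largest Ebf2-EGFP+ excess of any member at E15.5. As a ratio of mean FPKM the excess was larger for Cntn5 (14.6-fold) and Cntnap5b (12.2-fold), which were under 5 FPKM in all libraries of that stage. It lies on the minus strand at chr6:115954811-115995005. Its libraries were at 4.88 and 7.12 FPKM (Ebf2-EGFP+) and 3.85 and 2.48 FPKM (Ebf2-EGFP-) at E11.5. At E13.5 they were at 46.8 and 45.6 and 7.11 and 9.102 FPKM, and at E15.5 at 33.5 and 36.02 and 3.15 and 2.89 FPKM. The log2 difference was 2.38 ± 0.21 at E13.5 and 3.15 ± 0.21 at E15.5 (limma adjusted p = 4.88e-06 and 8.68e-07), and its change from E11.5 was 2.402 ± 0.29 (limma adjusted p = 5.99e-05). At E11.5 the difference was 0.75 ± 0.21 (limma adjusted p = 0.00499). Plxnd1 was no longer called without E11.5 Ebf2-EGFP+ replicate 2 (log2 0.52, limma adjusted p = 0.0692) or E11.5 Ebf2-EGFP- replicate 2 (log2 0.51, limma adjusted p = 0.0663). In Ebf2-EGFP+ cells Plxnd1 rose from E11.5 to E15.5 by 2.37 ± 0.21 (limma adjusted p = 1.44e-06), and in Ebf2-EGFP- cells the change was -0.03 ± 0.21 (limma adjusted p = 0.889).

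**Figure D3:**
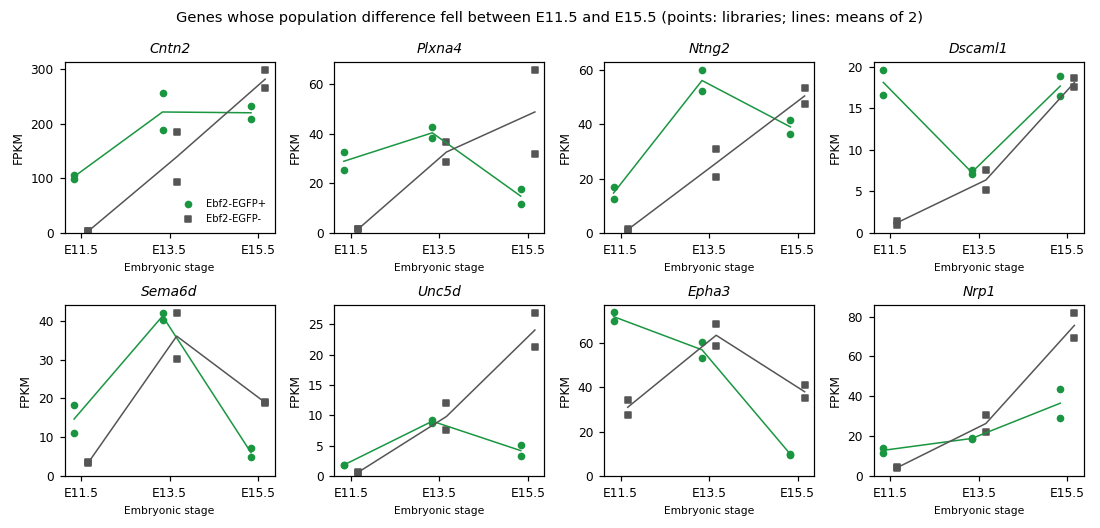
FPKM (vertical axis, from 0) at 3 stages (horizontal axis) for 8 genes whose population difference fell between E11.5 and E15.5, with each library as a point and lines through the means of 2 libraries, green circles for Ebf2-EGFP+ and grey squares for Ebf2-EGFP- cells. At E11.5 every green point lies above the grey ones, and at E15.5 the grey points lie above the green ones in all panels but Dscaml1, where they overlap.

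Slit1 was the Slit gene with the higher level in the Ebf2-EGFP+ sort throughout, and lies on the minus strand at chr19:41600257-41743665. The libraries were at 19.2 and 23.7 against 3.89 and 4.69 FPKM in the E11.5 sort, 39.5 and 49.8 against 9.004 and 11.01 FPKM in the E13.5 sort and 43.8 and 35.5 against 11.9 and 9.98 FPKM in the E15.5 sort, without overlap. Its log2 difference was 2.08 ± 0.19, 2.05 ± 0.19 and 1.77 ± 0.19 (limma adjusted p = 2e-06, 6.28e-06 and 1.91e-05). Slit2 was lower in Ebf2-EGFP+ cells at E13.5 and E15.5, with 1.405 and 1.04 against 4.08 and 4.24 FPKM at the later stage (log2 -1.22 ± 0.18, limma adjusted p = 0.000213). Slit3 was under 5 FPKM in all libraries. It was called lower in Ebf2-EGFP+ cells at E11.5, at 0.666 and 1.05 against 2.44 and 2.08 FPKM (log2 -0.82 ± 0.30, limma adjusted p = 0.0247), and higher at E13.5, at 2.68 and 2.57 against 0.547 and 0.687 FPKM (log2 1.16 ± 0.30, limma adjusted p = 0.00427). Without E11.5 Ebf2-EGFP+ replicate 1 (log2 -0.67, limma adjusted p = 0.139), E11.5 Ebf2-EGFP- replicate 1 (log2 -0.74, limma adjusted p = 0.106) or E11.5 Ebf2-EGFP- replicate 2 (log2 -0.89, limma adjusted p = 0.0562), Slit3 did not pass the threshold. With median-of-ratios scaling the E11.5 call of Slit3 was also lost (log2 -0.635, limma adjusted p = 0.0588).

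Of the Slit receptors, Robo1 had the higher level in the Ebf2-EGFP+ sort of each stage, and most clearly at E13.5 with 53.1 and 65.5 against 8.32 and 16.5 FPKM (log2 2.23 ± 0.25, limma adjusted p = 2.15e-05). At E15.5 it was at 74.97 and 79.3 against 36.5 and 50.98 FPKM (log2 0.82 ± 0.25, limma adjusted p = 0.0162). The limma call on Robo1 was lost without E15.5 Ebf2-EGFP+ replicate 2 (log2 0.78, limma adjusted p = 0.0667) or E15.5 Ebf2-EGFP- replicate 1 (log2 0.59, limma adjusted p = 0.126). Robo2 was at 41.6 and 40.2 against 7.39 and 7.82 FPKM at E11.5 (log2 2.28 ± 0.28, limma adjusted p = 1.63e-05). In Ebf2-EGFP- cells it rose to 38.2 and 66.03 FPKM at E15.5 (log2 2.57 ± 0.28, limma adjusted p = 5.22e-06), above the 20.6 and 37.9 FPKM of Ebf2-EGFP+ cells (log2 -0.82 ± 0.28, limma adjusted p = 0.0253). Robo2 was no longer called without E15.5 Ebf2-EGFP+ replicate 1 (log2 -0.40, limma adjusted p = 0.257) or E15.5 Ebf2-EGFP- replicate 2 (log2 -0.43, limma adjusted p = 0.214). With median-of-ratios scaling this call was lost as well (log2 -0.62, limma adjusted p = 0.109). With the compared groups alone it was not called either (log2 -0.82, limma adjusted p = 0.124). Robo3, known for its part in midline crossing, was an early transcript. It was at 20.6 and 28.6 FPKM in Ebf2-EGFP+ and 2.22 and 5.88 FPKM in Ebf2-EGFP- libraries at E11.5 (log2 2.43 ± 0.32, limma adjusted p = 2.65e-05). At E15.5 it stood at 0.0143 and 0.01497 FPKM in Ebf2-EGFP+ cells and was listed at 0.0456 and 0 FPKM in Ebf2-EGFP- cells. Within Ebf2-EGFP+ cells it fell (log2 -4.64 ± 0.32) over this interval (limma adjusted p = 2.72e-07).

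Ntn1, the classical long-range netrin, was lower in Ebf2-EGFP+ cells while most of its listed receptors were higher. At E11.5 Ntn1 was at 2.58 and 2.41 FPKM in Ebf2-EGFP+ and 20.1 and 13.8 FPKM in Ebf2-EGFP- libraries (log2 -2.34 ± 0.22, limma adjusted p = 2.46e-06). At E15.5 it was under 1 FPKM in all libraries, 0.719 and 0.324 against 0.8804 and 0.476 FPKM, which overlapped. The receptor gene Dcc was at 118 and 115 against 13.3 and 13.3 FPKM at E11.5. It was at 94.8 and 98.04 against 24.8 and 28.8 FPKM on E13.5, and 47.6 and 34.3 against 23.6 and 21.5 FPKM on E15.5. The Dcc libraries never overlapped, and the log2 difference was 3.04 ± 0.16, 1.81 ± 0.16 and 0.82 ± 0.16 (limma adjusted p = 6.41e-08, 5.6e-06 and 0.00119). In Ebf2-EGFP+ cells Dcc fell from E11.5 to E15.5 (log2 -1.501 ± 0.16, limma adjusted p = 6.99e-06), and in Ebf2-EGFP- cells it rose by 0.72 ± 0.16 (limma adjusted p = 0.00118).

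The Unc5 genes, whose products mediate repulsion by netrin, divided. Unc5b was at 7.47 and 9.07 against 7.12 and 6.64 FPKM at E11.5 (log2 0.23 ± 0.22, limma adjusted p = 0.352) and at 9.12 and 15.3 against 2.21 and 1.79 FPKM at E15.5 (log2 2.102 ± 0.22, limma adjusted p = 1.91e-05). Unc5d took the opposite course, from 1.76 and 1.87 against 0.649 and 0.538 FPKM at E11.5 to 5.04 and 3.31 against 21.2 and 26.8 FPKM at E15.5 (log2 0.82 ± 0.23 and -2.29 ± 0.23, limma adjusted p = 0.0056 and 1.25e-05). The change of the difference was 1.87 ± 0.31 for Unc5b and -3.11 ± 0.32 for Unc5d (limma adjusted p = 0.000472 and 2.33e-05). Unc5a was called higher in Ebf2-EGFP+ cells at the first 2 stages, and Unc5c at the first.

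Draxin, a secreted repellent that binds Dcc, was at 29.3 and 33.5 against 9.55 and 9.59 FPKM at E11.5 (log2 1.61 ± 0.20, limma adjusted p = 1.61e-05). It rose in both populations, to 109 and 108 and 75.97 and 75.97 FPKM at E15.5. The E15.5 libraries did not overlap (log2 0.51 ± 0.20, limma adjusted p = 0.0425). Without E15.5 Ebf2-EGFP+ replicate 1 (log2 0.51, limma adjusted p = 0.12), E15.5 Ebf2-EGFP+ replicate 2 (log2 0.52, limma adjusted p = 0.108), E15.5 Ebf2-EGFP- replicate 1 (log2 0.51, limma adjusted p = 0.115) or E15.5 Ebf2-EGFP- replicate 2 (log2 0.51, limma adjusted p = 0.0987), Draxin did not pass the threshold. The repulsive guidance molecule genes Rgma and Rgmb encode membrane-anchored ligands of Neo1. Rgmb was at 80.5 and 66.5 against 12.5 and 12.4 FPKM at E11.5 (log2 2.46 ± 0.15, limma adjusted p = 1.99e-07). Rgma was lower at that stage, at 18.9 and 21.9 against 40.4 and 38.2 FPKM (log2 -0.91 ± 0.19, limma adjusted p = 0.000793), and higher at E15.5, at 34.7 and 49.96 against 26.7 and 23.2 FPKM (log2 0.72 ± 0.19, limma adjusted p = 0.00691). The limma call on Rgma was lost without E15.5 Ebf2-EGFP+ replicate 2 (log2 0.46, limma adjusted p = 0.0754).

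**Figure D4:**
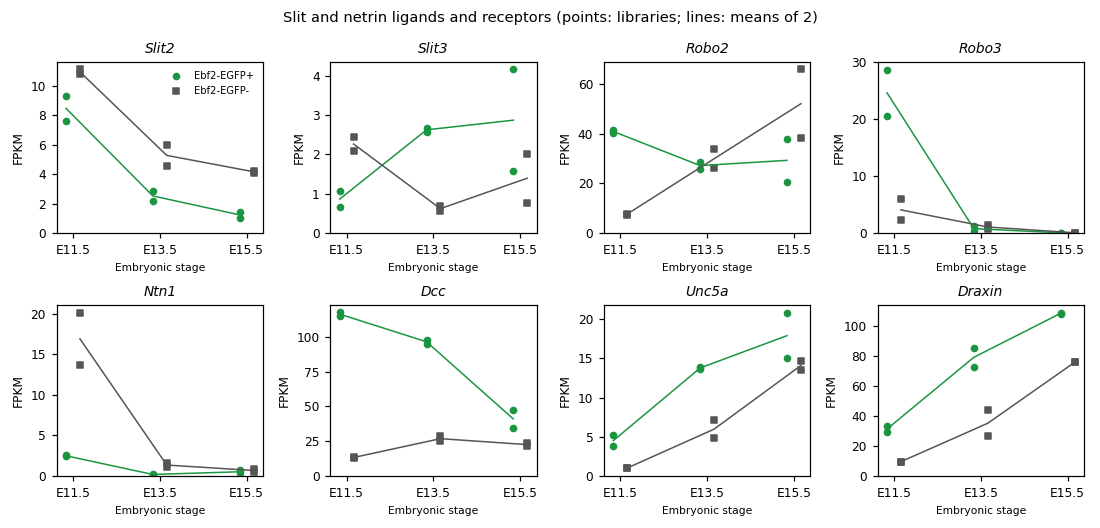
FPKM (vertical axis, from 0) at 3 stages (horizontal axis) for 8 Slit, Robo, netrin, Dcc, Unc5 and Draxin genes, with libraries as points and lines through the means of 2 libraries, green circles for Ebf2-EGFP+ and grey squares for Ebf2-EGFP- cells. Ntn1 is above 13 FPKM only in the Ebf2-EGFP- libraries at E11.5, while the Dcc points of Ebf2-EGFP+ cells lie above those of Ebf2-EGFP- cells at each stage.

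Eph receptor genes, which encode the receptors of ephrins, divided between the populations. Of 8 listed, the E11.5 Ebf2-EGFP+ sort had 3 higher and 5 lower, beside 36.8% and 44.9% of all genes, and 2 were higher and 5 lower at E15.5, beside 25.8% and 31.6%. The 5 lower at E11.5 became 3 without E11.5 Ebf2-EGFP- replicate 1. Ephb3, among those 5, was not called there (limma adjusted p = 0.0548), without E11.5 Ebf2-EGFP+ replicate 1 (limma adjusted p = 0.0784) or with median-of-ratios scaling (limma adjusted p = 0.0508). Epha3 reversed its order, from 70.03 and 74.02 against 34.4 and 27.8 FPKM at E11.5 to 9.65 and 9.88 against 35.1 and 41.1 FPKM at E15.5 (log2 1.195 ± 0.15 and -1.86 ± 0.15, limma adjusted p = 2.33e-05 and 3.68e-06). It fell within Ebf2-EGFP+ cells (log2 -2.76 ± 0.15, limma adjusted p = 9.58e-08). Ephb1 reversed the other way, from 10.2 and 10.9 against 18.99 and 14.9 FPKM to 43.6 and 42.6 against 13.9 and 11.1 FPKM (log2 -0.63 ± 0.18 and 1.71 ± 0.18, limma adjusted p = 0.00726 and 2.12e-05). Ephb1 was no longer called without E11.5 Ebf2-EGFP- replicate 1 (log2 -0.47, limma adjusted p = 0.0789). Ephb4, a receptor best known from blood vessels, was lower in Ebf2-EGFP+ cells at E11.5 with 2.56 and 2.93 against 11.8 and 13.1 FPKM (log2 -1.85 ± 0.19, limma adjusted p = 5.57e-06). All 4 listed endothelial markers were also lower at this stage, and of the 4 only Egfl7 was at E13.5 and only Cldn5 at E15.5. Ephb4 itself was called lower at all 3 stages. Its E15.5 call was lost without E15.5 Ebf2-EGFP- replicate 1 (log2 -0.52). The part of endothelial cells in these Ephb4 differences was not tested. Epha2 was low, at 0.226 and 0.169 against 2.06 and 1.43 FPKM (log2 -1.19 ± 0.13, limma adjusted p = 5.69e-06). Epha4 was lower in Ebf2-EGFP+ cells at E11.5, at 18.1 and 21.97 against 50.9 and 50.3 FPKM (log2 -1.299 ± 0.20, limma adjusted p = 7.94e-05). Its lower call at E15.5 was lost without E15.5 Ebf2-EGFP+ replicate 2 (log2 -0.44). With the compared groups alone it was lost as well (log2 -0.77, limma adjusted p = 0.0542).

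Of 5 ephrin genes, 3 were higher in Ebf2-EGFP+ cells on E11.5 and none was lower, and at E15.5 there were 2 of each. The shares of all genes were 36.8% higher and 44.9% lower at E11.5, and 25.8% and 31.6% at E15.5. Efna3 encodes a membrane-anchored ligand of EphA receptors. It was higher at all stages, with 13.9 and 16.4 against 1.39 and 1.33 FPKM at E11.5 and 42.9 and 30.5 against 17.1 and 15.9 FPKM at E15.5 (log2 2.77 ± 0.19 and 1.09 ± 0.19, limma adjusted p = 4.04e-07 and 0.000596). An antisense gene, Gm15998, shares 14.1% of the exon bases of Efna3, and the library kit was not stated to keep strand. Efnb2 went from 96.1 and 96.3 against 55.6 and 49.02 FPKM at E11.5 to 48.8 and 49.1 against 78.2 and 84.97 FPKM at E15.5 (log2 0.87 ± 0.13 and -0.72 ± 0.13, limma adjusted p = 8.29e-05 and 0.000772). Efnb1 was lower in Ebf2-EGFP+ cells from E13.5, at 37.8 and 32.6 against 119 and 103 FPKM (log2 -1.63 ± 0.29, limma adjusted p = 0.000361). At E11.5 it was called lower with the replicate block (log2 -0.48, limma adjusted p = 0.000788) and with the compared groups alone (log2 -0.48, limma adjusted p = 0.0128).

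The collapsin response mediator protein genes were among the most abundant members. Dpysl3 was at 581 and 504 against 121 and 122 FPKM at E11.5 (log2 2.15 ± 0.19, limma adjusted p = 1.63e-06). Its level rose in both populations, to 832 and 909 and 508 and 657 FPKM at E15.5 (log2 0.59 ± 0.19, limma adjusted p = 0.0187). Without E15.5 Ebf2-EGFP+ replicate 2 (log2 0.52, limma adjusted p = 0.0841) or E15.5 Ebf2-EGFP- replicate 1 (log2 0.40, limma adjusted p = 0.151), Dpysl3 did not pass the threshold. The same held with the compared groups alone (log2 0.59, limma adjusted p = 0.116). Crmp1 was close to it in level, at 507 and 431 against 117 and 114 FPKM at E11.5 (log2 2.01 ± 0.18, limma adjusted p = 2.09e-06). Dpysl5 was at 170.0 and 155 against 69.7 and 60.7 FPKM (log2 1.31 ± 0.20, limma adjusted p = 8.35e-05).

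Cntn2, a membrane-anchored adhesion molecule of early axons, had the largest population difference of any member at E11.5. The gene occupies chr1:132509427-132543256 on the minus strand. The Ebf2-EGFP+ libraries were at 99.7 and 106 FPKM and the Ebf2-EGFP- libraries at 3.099 and 3.202 FPKM (log2 4.65 ± 0.26, limma adjusted p = 9.32e-08). In Ebf2-EGFP- cells Cntn2 rose to 265 and 298 FPKM at E15.5 (log2 6.09 ± 0.26, limma adjusted p = 1.12e-08), beside 232 and 209 FPKM in Ebf2-EGFP+ cells. The summed cortical plate markers were at 65.1 to 69.0 FPKM in E11.5 and 806 to 989 FPKM in E15.5 Ebf2-EGFP- libraries. In Ebf2-EGFP+ libraries this sum was 465 to 523 FPKM at E11.5 and 789 to 1207 FPKM at E15.5. The part of cortical plate cells in the Cntn2 values was not tested. The E15.5 difference of Cntn2 was -0.35 ± 0.26 (limma adjusted p = 0.26) and was called with the replicate block (log2 -0.35, limma adjusted p = 0.0348). Cntn1 gained in Ebf2-EGFP+ cells, from 2.04 and 1.75 against 1.39 and 1.46 FPKM at E11.5 to 17.5 and 18.1 against 3.09 and 4.99 FPKM at E15.5 (log2 1.93 ± 0.21, limma adjusted p = 1.99e-05). Cntn5 kept a higher level in the Ebf2-EGFP+ sort of each stage, at 2.49 and 4.09 against 0.211 and 0.241 FPKM at E15.5 (log2 1.78 ± 0.17, limma adjusted p = 8.26e-06).

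Cntnap2, which encodes a neurexin-related partner of contactins, had the higher level in the Ebf2-EGFP+ sort of each stage while its level fell in both. It was at 133 and 108 against 49.2 and 43.9 FPKM at E11.5 and at 29.4 and 25.2 against 12.5 and 10.96 FPKM at E15.5. The stage change was log2 -2.095 ± 0.20 within Ebf2-EGFP+ cells and -1.903 ± 0.20 within Ebf2-EGFP- cells (limma adjusted p = 3.02e-06 and 4.28e-06). Cntnap5b was at 3.02 and 3.48 against 0.244 and 0.2895 FPKM at E15.5 (log2 1.74 ± 0.10, limma adjusted p = 5.78e-07). The adhesion gene Dscaml1 was at 16.6 and 19.6 against 0.997 and 1.49 FPKM at E11.5 (log2 3.09 ± 0.19, limma adjusted p = 1.99e-07) and at 18.9 and 16.5 against 17.5 and 18.7 FPKM at E15.5, where the libraries overlapped. The netrin-G gene Ntng2, a membrane-anchored relative of netrins, behaved alike, with 12.4 and 16.9 against 0.831 and 1.56 FPKM at E11.5 (log2 2.84 ± 0.23, limma adjusted p = 9.62e-07) and 41.6 and 36.5 against 53.5 and 47.4 FPKM at E15.5, a difference called with the replicate block (log2 -0.36, limma adjusted p = 0.0187). Dscam at E15.5 was called higher with the block too (log2 0.38, limma adjusted p = 0.0486).

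**Figure D5:**
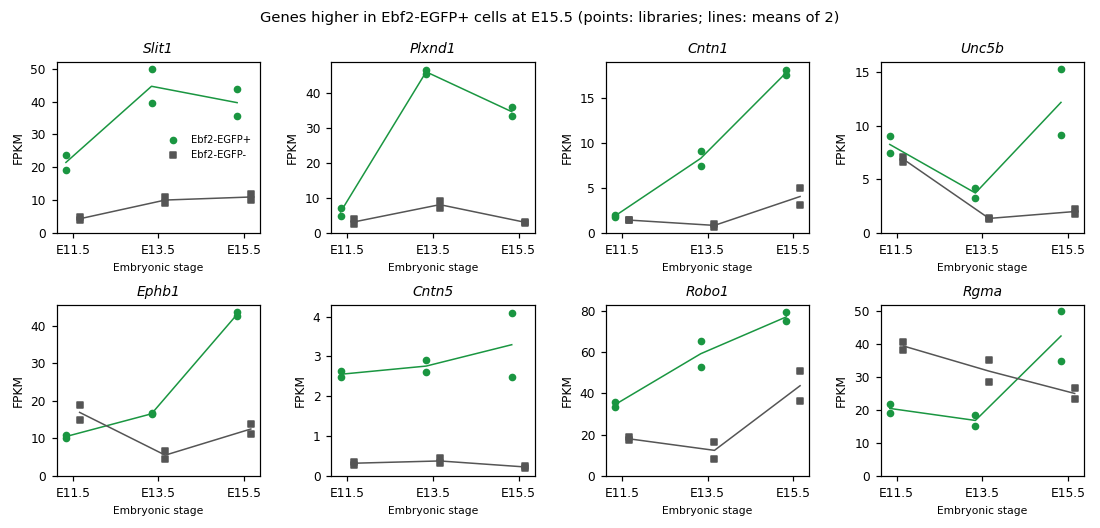
FPKM (vertical axis, from 0) at 3 stages (horizontal axis) for 8 genes called higher in Ebf2-EGFP+ cells at E15.5, with libraries as points and lines through the means of 2 libraries, green circles for Ebf2-EGFP+ and grey squares for Ebf2-EGFP- cells. At E15.5 every green point lies above every grey point, and for Ephb1 and Rgma the order was the opposite at E11.5.

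Within each population, the members changed between E11.5 and E15.5 more often upwards than downwards. In Ebf2-EGFP+ cells 33 rose and 26 fell (33.3% and 42.1% of all genes), and in Ebf2-EGFP- cells 41 rose and 15 fell (37.7% and 47.6%). The direction was upwards in both populations for 27 members (24.6% of all genes) and downwards in both for 12 (32.7%). It was opposite for 8 members (6.81%), Dcc, Efnb2, Nrp2, Plxna4, Rgma, Rgmb, Sema3a and Sema6d. Of these 8, all but Rgma fell in Ebf2-EGFP+ cells and rose in Ebf2-EGFP- cells. The fall of Plxna4 in Ebf2-EGFP+ cells was log2 -0.93 ± 0.29 (limma adjusted p = 0.0123). The limma call on Plxna4 was lost without E11.5 Ebf2-EGFP+ replicate 2 (log2 -0.75, limma adjusted p = 0.0959) or E15.5 Ebf2-EGFP+ replicate 1 (log2 -0.65, limma adjusted p = 0.113). With median-of-ratios scaling this fall was log2 -0.70 (limma adjusted p = 0.0693). In Ebf2-EGFP- cells, 3 of the 8 calls were also sensitive to single libraries. Nrp2 was no longer called without E11.5 Ebf2-EGFP- replicate 1 (log2 0.91, limma adjusted p = 0.0898), E11.5 Ebf2-EGFP- replicate 2 (log2 0.90, limma adjusted p = 0.0907) or E15.5 Ebf2-EGFP- replicate 1 (log2 0.55, limma adjusted p = 0.209). Without E11.5 Ebf2-EGFP- replicate 2 (log2 0.76, limma adjusted p = 0.0517) or E15.5 Ebf2-EGFP- replicate 2 (log2 0.58, limma adjusted p = 0.0857), Sema3a did not pass the threshold. The limma call on Rgma was lost without E15.5 Ebf2-EGFP- replicate 2 (log2 -0.54, limma adjusted p = 0.0505). Median-of-ratios scaling gave log2 -0.35 for Rgma (limma adjusted p = 0.0862).

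Ligands and receptors were then paired between the populations. Of 100 known ligand and receptor pairs, 56 had both genes in the table. These pairs share genes and are not independent, so they are given as counts. At E11.5 both genes were higher in Ebf2-EGFP+ cells in 16 pairs, the ligand was higher and the receptor lower in 10, the ligand lower and the receptor higher in 12, and both were lower in 0. In the remaining 18 pairs at least 1 gene was not called. At E13.5 the counts were 7, 9, 11 and 3, with 26 not called for both. At E15.5 they were 2, 12, 8 and 9, with 25 not called for both. Several of these counts moved with single libraries or settings. The 12 at E11.5 became 7 without E11.5 Ebf2-EGFP- replicate 2, and the 0 became 4 with the replicate block or the compared groups alone. The 7 at E13.5 became 4 without E13.5 Ebf2-EGFP- replicate 1 and 13 with median-of-ratios scaling. At E15.5 the 2 became 0 without Ebf2-EGFP- replicate 1 and 4 with median-of-ratios scaling or the block, the 12 became 7 without Ebf2-EGFP+ replicate 1 or with the compared groups alone, and the 8 became 4 without Ebf2-EGFP- replicate 1 and 5 without Ebf2-EGFP+ replicate 1, without Ebf2-EGFP- replicate 2, without any single E11.5 library or with the compared groups alone. The 2 also became 1 without E15.5 Ebf2-EGFP+ replicate 1, E15.5 Ebf2-EGFP- replicate 2, any single E11.5 library or either E13.5 Ebf2-EGFP+ library.

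By kind of pair, netrin and its receptors were split at E11.5, where Ntn1 was lower and the receptor higher in Ebf2-EGFP+ cells in 6 of 7 pairs. This held for 5 of the 7 at E13.5, and at E15.5 Ntn1 was not called. All 7 pairs share Ntn1, so these counts are those of receptors called higher. At E11.5, 70% of the guidance genes and 36.8% of all genes were higher. The 6 include Neo1, whose E11.5 call was sensitive to single libraries, as given above. Of 13 semaphorin and plexin pairs, both genes were higher in Ebf2-EGFP+ cells in 8 at E11.5, against 0 at E15.5 (1 with median-of-ratios scaling or the block). All 6 plexins were called higher at E11.5, so the 8 are the pairs whose semaphorin was called higher. They include Sema4a with Plxnb1 and with Plxnd1, and the E11.5 calls of both plexins were sensitive to single libraries, as given above. At E15.5 the 2 pairs of Sema3a and Sema3c with Nrp1 were lower on both sides. Among the 8 ephrin-A and EphA pairs, the ligand was higher and the receptor lower in 6 at E15.5. For the 15 pairs of an ephrin-B with an EphB receptor or Epha4, this arrangement was found in 8 at E11.5 (4 without E11.5 Ebf2-EGFP- replicate 1), and both genes were lower in 6 at E15.5. Each of these sets of 6 at E15.5 includes pairs with Epha4, whose E15.5 call was sensitive to a single library, as given above. Draxin and Dcc were both higher in the Ebf2-EGFP+ sort of the first 2 stages, and so were Slit1 and Robo1. Both pairs were also called higher at E15.5, but the Draxin call was lost without any single E15.5 or E11.5 library or either E13.5 Ebf2-EGFP+ library, and the Robo1 call without the 2 libraries named above, each in turn.

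Other genes of guidance signalling were read from a list of 52, of which 33 were in the table. Higher in Ebf2-EGFP+ cells were 22, 18 and 14 in order of stage, and lower were 7, 5 and 4. The shares of all genes were 36.8%, 32.1% and 25.8% higher, and 44.9%, 43.5% and 31.6% lower. The median log2 difference of the 33 was 0.77, 0.57 and 0.36, against -0.19, -0.19 and -0.11 over all genes. L1cam and Nrcam, adhesion partners of contactins and neuropilins, averaged 71.7 against 8.32 FPKM and 58.3 against 7.81 FPKM at E11.5. Ablim1, an actin-binding protein gene linked to netrin signalling, averaged 2.08 against 3.50 FPKM at E11.5 and 32.9 against 7.47 FPKM at E15.5. The cytoplasmic kinase gene Fyn averaged 86.5 against 28.5 FPKM at E11.5 and 63.2 against 78.2 FPKM at E15.5.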

How the data were processed

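RNA-seq was made from 12 libraries of FACS-sorted cells, in 6 groups by stage and population taken from the sample labels. The authors mapped paired reads to mm10 with TopHat 2.0.8b and computed FPKM with Cufflinks 2.2.0, and deposited FPKM per library for genes they called differential. Their deposited columns of fold ratios and p-values were not used. Here limma 3.58.1 (R 4.3.3) was fitted to log2(FPKM + 1) of all 4859 genes with 6 groups and a variance trend, with Benjamini-Hochberg adjustment over all genes and a threshold of 0.05. These genes had already been called differential between the populations by the study in the same libraries. The adjusted p-values and the shares over all genes are therefore not genome-wide, and calls of a population difference are not independent of that choice. This scale understates changes of low genes. In simulated data for the E11.5 comparison on 4859 genes, 73 of 100 changes of log2 size 1 and 98 of 100 of size 2 were recovered, with 6 false calls. Only 200 genes were changed there, while 1788 genes were called higher and 2184 lower at E11.5 in the data. These rates therefore need not carry over. Depth is unknown: at best 30.1% to 44.6% of values under 0.15 FPKM lay on a grid of whole fragments within a tolerance of 0.01. Replicates correlated at 0.981 to 0.992 across genes, and none held identical values. Same-numbered libraries of a stage deviated together (r = 0.43, 0.53 and 0.43 across genes), so the number was used as a block in an alternative fit. Genes named by rule were, per stage, up to 5 in each direction with the largest differences among those called with non-overlapping libraries, likewise the 5 largest changes of the difference each way, and the most abundant member of each family, 32 in all. Other members are given within their family. The members and lists were chosen with earlier results of these data known. Values of lncRNA transcripts that share exon bases with a member were read from the second deposited FPKM table after the data were seen, without a test.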

Additional observations from a re-analysis of the deposited data

Results flagged for a closer look

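The difference between Ebf2-EGFP+ and Ebf2-EGFP- cells was itself different at E15.5 and at E11.5 for 25 of the 32 genes named by rule, in a test of the stage by population interaction over all genes. Of the 32, 10 were named for the largest changes of this same difference, so this count is partly set by the choice of genes. Over all genes, 32.0% moved towards Ebf2-EGFP+ cells and 27.7% towards Ebf2-EGFP- cells. Values are the change of the log2 difference with its SE and the limma adjusted p. The difference moved towards Ebf2-EGFP- cells for 18 genes, which were Plxna4 (-5.17 ± 0.41, 5.32e-06), Cntn2 (-5.001 ± 0.37, 3.11e-06), Sema6d (-3.31 ± 0.33, 1.74e-05), Ntng2 (-3.21 ± 0.32, 1.74e-05), Dscaml1 (-3.13 ± 0.27, 7.86e-06), Unc5d (-3.10 ± 0.32, 2.33e-05), Epha3 (-3.05 ± 0.22, 2.49e-06), Nrp1 (-2.44 ± 0.29, 5.38e-05), Dcc (-2.22 ± 0.23, 1.98e-05), Sema6c (-1.89 ± 0.26, 0.000153), Sema3a (-1.88 ± 0.35, 0.000959), Efna3 (-1.68 ± 0.27, 0.000366), Efnb2 (-1.59 ± 0.19, 4.94e-05), Dpysl3 (-1.56 ± 0.26, 0.000509), Dscam (-1.55 ± 0.38, 0.00427), Sema5a (-1.46 ± 0.29, 0.0014), Plxna2 (-1.38 ± 0.32, 0.00361) and Draxin (-1.10 ± 0.28, 0.00552). It moved towards Ebf2-EGFP+ cells for 7 genes, which were Ephb4 (1.10 ± 0.28, 0.00528), Epha2 (1.10 ± 0.18, 0.000375), Cntn1 (1.67 ± 0.29, 0.000576), Unc5b (1.87 ± 0.31, 0.000472), Ntn1 (2.19 ± 0.31, 0.000152), Ephb1 (2.35 ± 0.26, 3.74e-05) and Plxnd1 (2.40 ± 0.29, 5.99e-05). The receptors Plxna4, Unc5d, Epha3 and Nrp1 are in the first set together with the ligands Sema6d, Sema3a and Efnb2. With a pseudocount of 0.1 the change of Ephb4 was 0.95 (limma adjusted p = 0.0589), no longer past the threshold. Over the same stages the summed cortical plate markers of Ebf2-EGFP- cells rose from 65.1 to 69.0 FPKM to 806 to 989 FPKM, and their part in these changes was not tested.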

How the results depend on the processing

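All 12 counts of members called stayed within 1.5 times their value under a pseudocount of 0.1, median-of-ratios scaling, a mean FPKM of at least 1, no variance trend and the compared groups alone. So did the 8 counts that the replicate block could fit, and the counts of each comparison with any 1 of its libraries left out. The block, which pairs same-numbered libraries of a stage, gave 51 higher and 13 lower at E11.5, 39 and 15 at E13.5, 32 and 23 at E15.5, and 14 and 42 for the change of the difference, and no call was lost. Among the 32 genes named by rule, it added beyond the calls given above Efnb1 (log2 -0.89, limma adjusted p = 0.000249) and Epha4 (log2 0.53, limma adjusted p = 0.0199) to the change of the difference. No blocked fit of a stage change within a population was possible, since the numbers pair libraries of 1 stage. Median-of-ratios scaling shifted the median of all genes by 0.23, 0.26 and 0.18 in the population differences and by 0.21 and 0.26 in the stage changes. It turned the sign of 7 values that were not called: Epha3 E13.5 difference 0.15, Plxna2 E13.5 difference 0.25, Unc5d E13.5 difference 0.21, Dscaml1 E15.5 difference 0.16, Sema6c E15.5 difference 0.12, Dscaml1 stage change in Ebf2-EGFP+ cells 0.20, Plxnd1 stage change in Ebf2-EGFP- cells 0.19. The cause was not tested. Leaving out single libraries turned signs of values that were not called, with these ranges of log2 values: Robo1 change of the difference -0.32 to 0.15, Sema5b change of the difference -0.099 to 0.36, Dscaml1 E13.5 difference -0.049 to 0.43, Plxna2 E13.5 difference -0.13 to 0.011, Sema6d E13.5 difference -0.023 to 0.44, Unc5d E13.5 difference -0.38 to 0.23, Dscaml1 E15.5 difference -0.13 to 0.058, Ntn1 E15.5 difference -0.33 to 0.045, Sema6c E15.5 difference -0.20 to 0.027, Cntn5 stage change in Ebf2-EGFP+ cells -0.024 to 0.52, Dscaml1 stage change in Ebf2-EGFP+ cells -0.15 to 0.083, Efnb1 stage change in Ebf2-EGFP- cells -0.77 to 0.16, Plxnd1 stage change in Ebf2-EGFP- cells -0.27 to 0.21, Sema5a stage change in Ebf2-EGFP- cells -0.13 to 0.20. A lone library left in a group is then assumed to vary like the others. Read depth cannot be had from FPKM, so low values such as Robo3 at E15.5 carry no floor.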

Other observations

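Other members changed in ways that the families above do not show. Cntnap3, a contactin-associated protein gene, was under 0.11 FPKM in all E11.5 libraries and reached 1.16 and 1.22 FPKM in the E15.5 Ebf2-EGFP- libraries, against 0.0833 and 0.0726 FPKM in Ebf2-EGFP+ cells (log2 -1.02, limma adjusted p = 7.12e-06). Efna5, an ephrin of the A class, fell in both populations, from 12.7 and 11.6 to 3.47 and 3.43 FPKM in Ebf2-EGFP+ cells and from 10.3 and 7.96 to 1.37 and 1.12 FPKM in Ebf2-EGFP- cells. Ntn4 was at 1.21 and 1.26 FPKM in Ebf2-EGFP+ and 6.11 and 4.10 FPKM in Ebf2-EGFP- libraries at E13.5 (log2 -1.43, limma adjusted p = 0.000364), and its libraries overlapped at E15.5.

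Of the lncRNA transcripts in the second deposited table, 2 share exon bases with a member. 6530402F18Rik, which lies on the same strand as Ntng2 and covers 14.0% of its exon bases, was at 5.85 and 7.40 FPKM in Ebf2-EGFP+ and 0.975 and 1.19 FPKM in Ebf2-EGFP- libraries at E11.5. At E15.5 it was at 9.004 and 10.1 against 15.46 and 14.8 FPKM, so the order of its libraries turned. The libraries of Ntng2 turned too, but its E15.5 difference was called with the replicate block and not in the fit without it. A730056A06Rik, on the strand opposite to Rgma, covers 4.65% of the Rgma exon bases. It was at 0.372 and 0.383 FPKM in Ebf2-EGFP+ and 0.764 and 0.663 FPKM in Ebf2-EGFP- libraries at E11.5. At E15.5 the libraries overlapped, at 0.395 and 1.21 against 0.601 and 0.630 FPKM. Reads shared between such partners cannot be told apart here, and these transcripts were not tested.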
